A study of Rattus norvegicus with 3 samples.

Results

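Splicing factors and other RNA-binding regulators were examined as a group in cultured rat Schwann cell precursors, the early glia that accompany growing axons of peripheral nerves. The members were chosen by gene symbol: the SR proteins with their relatives Tra2a and Tra2b, the hnRNPs, the SF3 and U2AF subunits that recognise the branch point and the 3' splice site, the Snrp proteins of the snRNPs, the Rbfox, Celf, Mbnl, Ptbp, Nova, Khdrbs, Qk and Esrp regulators, and the Igf2bp, Msi, Lin28 and Elavl1 regulators of mRNA. This gave 81 of the 17337 genes listed.

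RNA was sequenced from 3 libraries of 1 group, wild-type and untreated cells from dorsal root ganglia of rat embryos, kept in a modified Sato medium based on DMEM. There is no second group, so the data give levels within these cultures, and a level is given as TPM (counts divided by listed gene length and scaled to the same total in each library). Total counts were 15309526, 14139074 and 14162738. The cells are primary cultures whose composition was not measured. Separate cultures or animals are not named in the labels, so p-values rest only on how far these libraries differ, and that may be technical spread. The labelled cell type was set beside its markers, and all 11 measured Schwann cell precursor markers were above 1 TPM. Sox10 was at 612 ± 26.0 and Erbb3 at 581 ± 14.3 TPM (SD, n = 3). The lowest were Fabp7 at 3.32 ± 1.31 and Tfap2a at 16.7 ± 0.633 TPM. All 6 fibroblast and all 11 measured sensory neuron markers were above 1 TPM as well, so passing that level does not identify the cell type. Fibroblast markers were abundant, at 8282.8 to 8483 TPM summed over 6 genes in each library. Sensory neuron markers summed to 853 to 871 TPM over 11 genes, led by Tubb3 at 185 ± 5.76 TPM, and the erythroid gene Hbb was listed at 0.

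Introns are removed from pre-mRNA by the spliceosome, in which U1 snRNP pairs with the 5' splice site while U2AF and the SF3 subunits of U2 snRNP settle on the 3' end of the intron. SR proteins mostly favour the use of an exon when bound within it, and hnRNPs, which coat nascent RNA, often oppose it. Regulators such as PTBP, RBFOX, CELF, MBNL, NOVA and QKI then set which exons are used in a given tissue, and the balance of PTBP1 and PTBP2 is a classic switch of neuronal differentiation. In myelinating glia, QKI is known for its part in splicing and handling the mRNAs of myelin proteins.

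Most members were expressed. By limma against a level of 1 TPM, with Benjamini-Hochberg adjustment over all 13345 genes with a count, 71 of the 78 members with a count were above and 5 below, where 78.4% of all genes tested were above and 17.8% below. The members' median level was 98.7 ± 0.412 TPM, against 8.38 ± 0.159 TPM over all genes listed and 34.3 ± 0.357 TPM over detected genes, meaning those with at least 1 TPM in all 3 libraries. Of the 81 members, 71 were detected by that rule, where the share over all genes listed was 60.6%, and 38 reached 100 TPM in all 3 libraries, where that share was 11.7%. Together the members made up 1.24 ± 0.0191% of the summed TPM of a library (SD, n = 3), and 14 members held 50% of it.

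**Figure D1:**
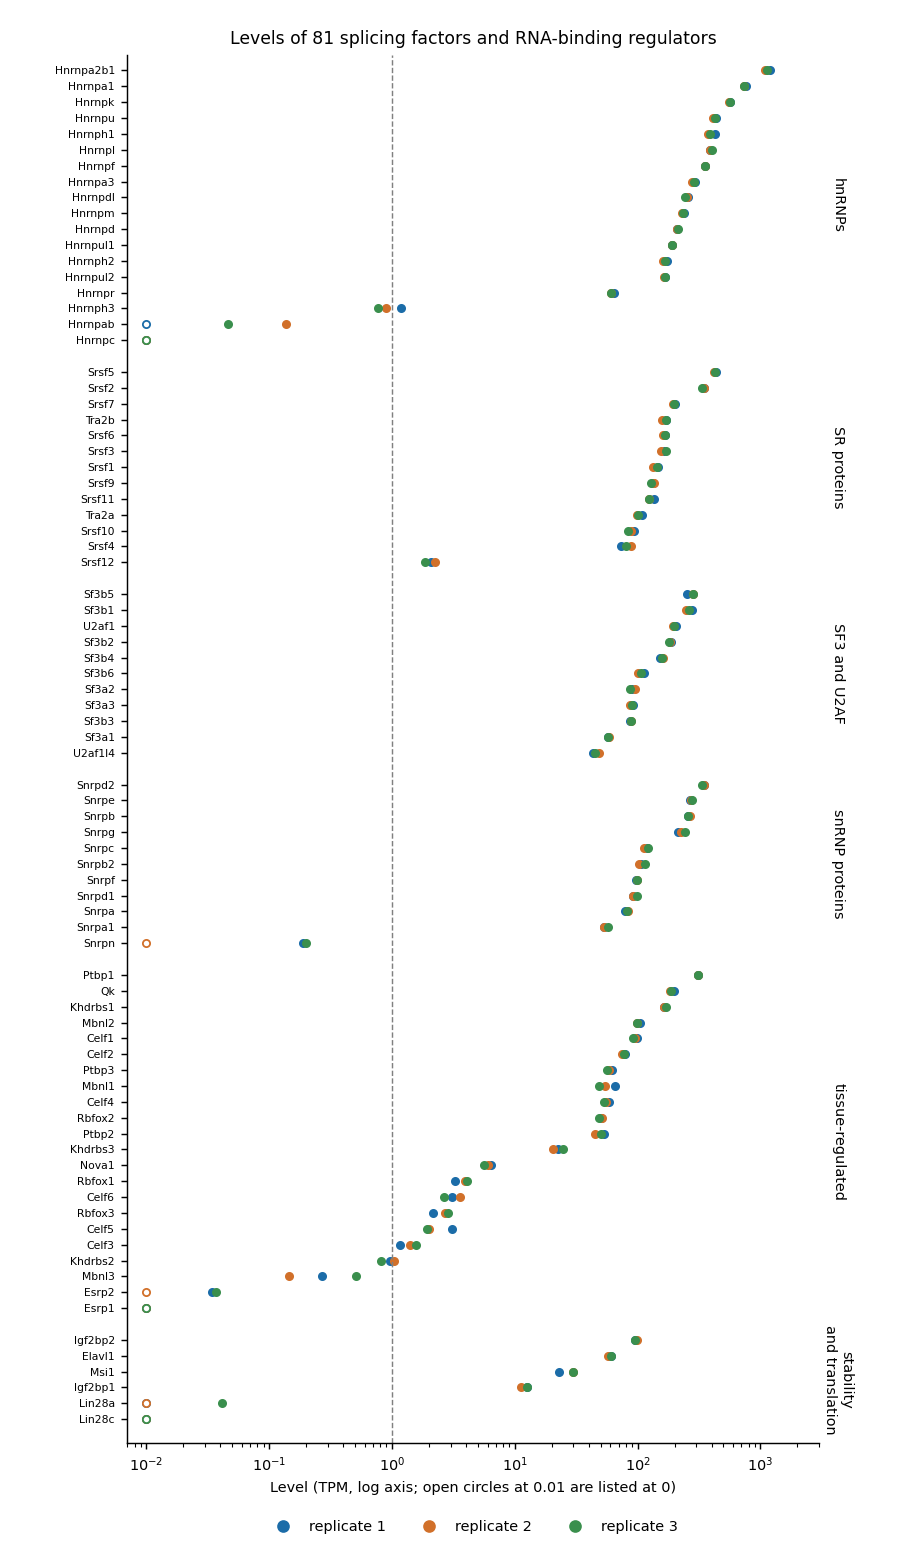
Level in TPM (log axis) of each of the 81 members in each library, grouped by role and ordered by mean within a role; colours mark the 3 replicates, the dashed line is 1 TPM, and open circles drawn at 0.01 are values listed at 0 (points at 0 overlie each other). The hnRNPs, SR proteins, SF3 and U2AF subunits and snRNP proteins lie mostly between 50 and 1200 TPM with a few far lower, whereas the tissue-regulated factors spread over the whole axis.

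The hnRNPs held the largest share of the members' summed TPM and had the highest median of the roles. By the geometric mean of TPM + 1, which weighs the near-silent members, they were at 119 against 121 for SF3 and U2AF. The near-silent hnRNPs are Hnrnpc, Hnrnpab and Hnrnph3, whose levels cannot be read as expression levels given how they are listed (below). The geometric mean without them was not computed. The 18 hnRNPs held 45.1% of the members' summed TPM, at 5724, 5457 and 5554 TPM in replicates 1, 2 and 3, with a median of 241 ± 4.71 TPM. The highest member of all was Hnrnpa2b1, an hnRNP of the A/B type that also takes part in mRNA transport in oligodendrocytes, at 1199.8, 1090.02 and 1134 TPM; its gene lies on the minus strand at chr4:81237496-81241281 (rn6). Next came its relative Hnrnpa1, a splicing repressor, at 767, 734 and 737 TPM, and Hnrnpk, a KH-domain protein that binds C-rich RNA, at 561, 552 and 563 TPM. The ranges of Hnrnpa2b1, Hnrnpa1 and Hnrnpk did not overlap, so the order of these genes was the same in each library. Hnrnpa2b1 exceeded Hnrnpa3 by a log2 ratio of 1.99 ± 0.03 (SD, n = 3, with 0.1 TPM added to each gene), and Hnrnpa1 to Hnrnpa2b1 gave -0.61 ± 0.04.

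Below them the family ran on from Hnrnpu, the nuclear scaffold protein, at 424 ± 12 TPM, to Hnrnpul2 at 166 ± 1.69 TPM. Hnrnph1, which binds G-rich RNA, was at 425, 378 and 385 TPM and stood out among them for its high value in replicate 1. Its relative Hnrnpf, at 354 ± 2.0 TPM, lay below every library's Hnrnph1 value, though the log2 ratio of Hnrnph1 to Hnrnpf was only 0.16 ± 0.09. Hnrnpd, also called AUF1, which binds AU-rich elements, was at 210.01, 208 and 213 TPM and lay below its relative Hnrnpdl (log2 ratio -0.25 ± 0.06). Hnrnpr was the lowest hnRNP above 1 TPM, at 63.8, 60.8 and 60.3 TPM.

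The other 3 hnRNPs were at or near 0, in a family otherwise above 60 TPM. Hnrnpc, a core protein of the hnRNP particle, had no count in any library. Hnrnpab was at 0, 0.137 and 0.046 TPM, with 4 counts over the 3 libraries. Hnrnph3, a shorter relative of Hnrnph1, was at 1.19, 0.89 and 0.773 TPM, on both sides of 1 TPM, and passed in neither direction (limma adjusted p = 0.633). All of these share a feature of the table that the other hnRNPs lack, in the way their exons are listed.

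In the rn6 coordinates of the authors' table, Hnrnpc lies on the minus strand at chr15:28486607-28517353, and 1712 of its 1800 bases (95.1%) are also exon bases, on the same strand, of a gene the table describes as an hnRNP C1/C2-like locus. That locus, LOC100911576, is itself listed at more than 1 place and was at 0.512, 0.169 and 0.211 TPM. Hnrnpab is listed at 2 places on the minus strand of chromosome 10, chr10:34955716-34961608 and chr10:37049402-37055294, with 7 exons at each. Hnrnph3 is listed at 2 places on the plus strand of chromosome 20, chr20:27173190-27178046 and chr20:27212701-27217558, with 9 exons at each.

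Across the members, 5 were listed in such a way and none of them was detected by the rule above, whereas 71 of the other 76 were. Beside the 3 hnRNPs these are Snrpn, with 85.5% of its bases shared on the same strand with Snurf, and Lin28c, listed at 2 places on chromosome 4 with 377.1 kb between them. Over the whole table, 96.8% of the 156 genes that share 75% or more of their bases on the same strand were under 1 TPM in each library, and so were 87.7% of the 529 genes listed at 2 places, against 34.3% of the 16434 genes at 1 place with no shared base. How reads in shared exons or with several matches were counted is not given in the sources used here. Levels of these 5 members therefore cannot be read as expression levels, and how much of their low counts comes from the listing was not tested.

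**Figure D2:**
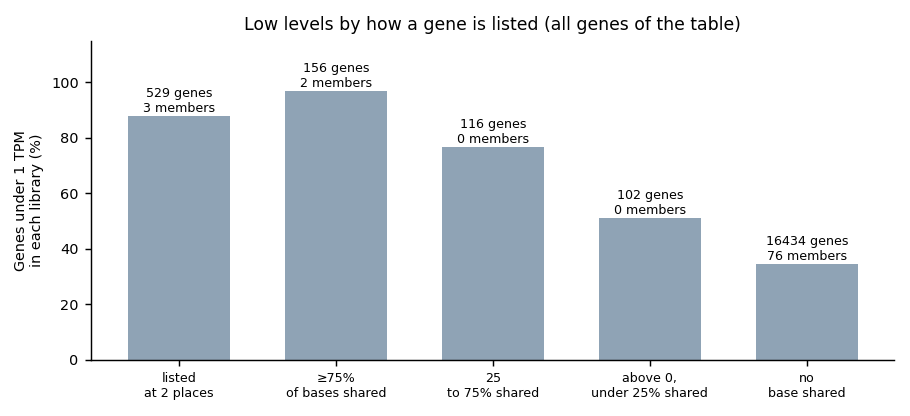
Share of genes of the table under 1 TPM in each library (vertical axis, %), by how the gene is listed (horizontal axis): at 2 places, or at 1 place with the given share of its bases also listed for another gene on the same strand; the numbers above the bars are genes and members. The bars stand at 87.7% and 96.8% for the leftmost classes, which hold 5 members, and at 34.3% for genes with no shared base, which hold 76.

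All SR proteins were above 1 TPM. The 13 members had a median of 142 ± 4.68 TPM and a sum of 2183, 2106 and 2128 TPM in replicates 1, 2 and 3. The highest was Srsf5 at 436, 417 and 427 TPM, followed by Srsf2, also known as SC35, at 346, 345 and 334 TPM. These stood apart from the rest, since the next, Srsf7, was at 199 ± 4.45 TPM. Srsf1, the founding SR protein of the family, was at 141 ± 6.31 TPM and could not be ordered against Srsf9 at 133 ± 4.5 TPM, since their log2 ratio of 0.09 ± 0.10 changed sign between libraries.

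Tra2b, a relative of the fly sex-determination factor Transformer-2, was at 167 ± 6.72 TPM and exceeded Tra2a by a log2 ratio of 0.69 ± 0.04. Srsf3, the smallest SR protein, lay slightly below Srsf7 (log2 ratio -0.28 ± 0.04). Srsf4 was at 73.9, 87.6 and 79.8 TPM. Srsf10, which is active as a repressor when dephosphorylated, was at 93.8, 88.6 and 83.8 TPM, above Srsf4 in each library though their ranges overlapped, whereas its paralog Srsf12 was at 2.07, 2.22 and 1.85 TPM. Srsf12 rested on 34 counts over the libraries and passed as above 1 TPM (log2 difference 0.60 ± 0.07, SE, limma adjusted p = 0.000139), and the log2 ratio of Srsf10 to Srsf12 was 5.37 ± 0.10 (SD, n = 3).

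The 11 SF3 and U2AF members were all called above 1 TPM. Their median was 106 ± 5.86 TPM, and the members lay between 45.7 and 273 TPM. Sf3b5, a small subunit of SF3B, led at 255, 282 and 282 TPM, followed by Sf3b1, the large HEAT-repeat subunit that clamps the branch point, at 279, 249.6 and 265 TPM. The values of Sf3b5 and Sf3b1 overlapped, Sf3b1 being the higher in replicate 1 and Sf3b5 in the others. U2af1, which reads the AG at the end of the intron, was at 201 ± 5.38 TPM. It exceeded its shorter relative U2af1l4, at 43.7, 48.4 and 45.1 TPM, by a log2 ratio of 2.13 ± 0.11. Sf3a1 was the lowest SF3 subunit at 57.7, 59.0 and 57.4 TPM, and the SF3A trio (Sf3a1, Sf3a2, Sf3a3) lay at 58.0 to 90.7 TPM.

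Of the 11 Snrp members 10 were above 1 TPM and Snrpn was below. Their median was 108 ± 6.08 TPM. Snrpd2, a protein of the Sm ring that encircles the snRNA, was highest at 348, 347 and 334 TPM, followed by Snrpe at 265, 272 and 275 TPM. The other ring proteins were uneven in level, Snrpb being at 259, 266 and 259.6 TPM, Snrpg at 228 ± 14.3, Snrpf at 98.5 ± 1.23 and Snrpd1 at 93.9 ± 3.89 TPM. Among the proteins particular to a snRNP, Snrpc of U1 was at 118 ± 3.79 TPM and Snrpa, the U1 A protein, at 81.6 ± 2.20 TPM, below Snrpb2, the U2 B'' protein (log2 ratio of Snrpb2 to Snrpa 0.40 ± 0.09). Snrpa1, the U2 A' protein, was lowest of those detected at 53.4, 52.9 and 57.7 TPM. Snrpn, an imprinted gene of neurons that encodes a near copy of the Snrpb protein, was at 0.187, 0 and 0.201 TPM, and Snurf, whose exons contain most of its bases, was at 0.829, 0.495 and 0.89 TPM.

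The tissue-regulated splicing factors ran gradually from high levels to none. Of the 22 members 18 were above 1 TPM, 2 below, 1 passed in neither direction and 1 had no count, and the median was 35.2 ± 2.06 TPM. At the top stood Ptbp1, the polypyrimidine tract protein of non-neuronal and progenitor cells, at 313, 311 and 311 TPM, and Qk, which encodes QKI, at 198, 183 and 187 TPM. Ptbp1 had the lowest coefficient of variation (CV) between libraries of the members with a mean of at least 10 TPM, at 0.331%. Counting error alone would give 1.26% for it, so the low value cannot be read as unusually stable expression. Ptbp2, the paralog that replaces it in neurons, was nevertheless present at 53.1, 45.1 and 49.9 TPM, close to Ptbp3 at 59.0 ± 2.99 TPM, and the log2 ratios of Ptbp1 to Ptbp2 and to Ptbp3 were 2.66 ± 0.12 and 2.40 ± 0.07.

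In each of the RBFOX, MBNL and KHDRBS families the lowest paralog lay far below the highest. Rbfox2, the broadly expressed member that binds GCAUG, was at 50.4, 50.9 and 48.2 TPM, against 3.26, 3.92 and 4.06 TPM for Rbfox1 and 2.16, 2.71 and 2.83 TPM for Rbfox3, which encodes the neuronal antigen NeuN. Its log2 ratio was 3.70 ± 0.19 to Rbfox1 and 4.23 ± 0.22 to Rbfox3. Mbnl2 was at 105, 99.0 and 98.9 TPM and Mbnl1 at 65.2, 54.3 and 48.6 TPM, so that Mbnl2 was the main muscleblind paralog (log2 ratio of Mbnl1 to Mbnl2 -0.86 ± 0.17). Mbnl3 was below 1 TPM, at 0.269, 0.144 and 0.505 TPM with 13 counts in all, and the ratio of mean TPM of Mbnl2 to Mbnl3 was 330-fold, with a 95% exact interval for counting error of 193 to 621.

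Khdrbs1, also called SAM68 and found in most dividing cells, was at 163, 163 and 172 TPM. It stood above Khdrbs3, or T-STAR, at 22.4, 20.7 and 24.7 TPM, and above Khdrbs2, or SLM1, a paralog known from neurons, at 0.966, 1.04 and 0.815 TPM. Khdrbs2 straddled 1 TPM and passed in neither direction (limma adjusted p = 0.544), and the log2 ratio of Khdrbs1 to it was 7.32 ± 0.20. Nova1, a neuronal regulator that binds YCAY clusters, was at 6.36, 6.0 and 5.66 TPM, above 1 TPM in every library.

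The CELF family, which binds GU-rich RNA and often opposes MBNL, split into a high and a low set. Celf1, found in most tissues, was at 98.3, 95.4 and 91.7 TPM, Celf2 at 77.0 ± 2.14 TPM and Celf4 at 58.3, 55.7 and 53.4 TPM. Celf6 was at 3.09, 3.57 and 2.63 TPM, Celf5 at 3.06, 1.99 and 1.92 TPM, and Celf3 at 1.17, 1.39 and 1.57 TPM. The sets did not overlap, and Celf4, best known from neurons as Celf3 and Celf5 are, fell in the high one (log2 ratio of Celf1 to Celf4 0.77 ± 0.01, to Celf3 6.02 ± 0.25 and to Celf5 5.33 ± 0.32). Celf5 had the widest relative spread of any member above 1 TPM, its value in replicate 1 being 1.59 times the lowest.

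The epithelial splicing regulators were at or near 0, although each is listed at 1 place and shares no base with another gene on the same strand. Esrp1 had no count, and Esrp2 was at 0.034, 0 and 0.037 TPM, from 2 counts. Part of Esrp2 (591 bases) overlaps Nfatc3 on the opposite strand. A count of 3, taken as the floor, corresponds to 0.153, 0.165 and 0.164 TPM in Esrp1 for the 3 libraries, so levels under that could not be told from 0. Of the 4 epithelial markers 2 were above 1 TPM, Cdh1 at 33.3 ± 1.87 and Krt8 at 3.21 ± 0.249 TPM, and Epcam and Krt18 were below.

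**Figure D3:**
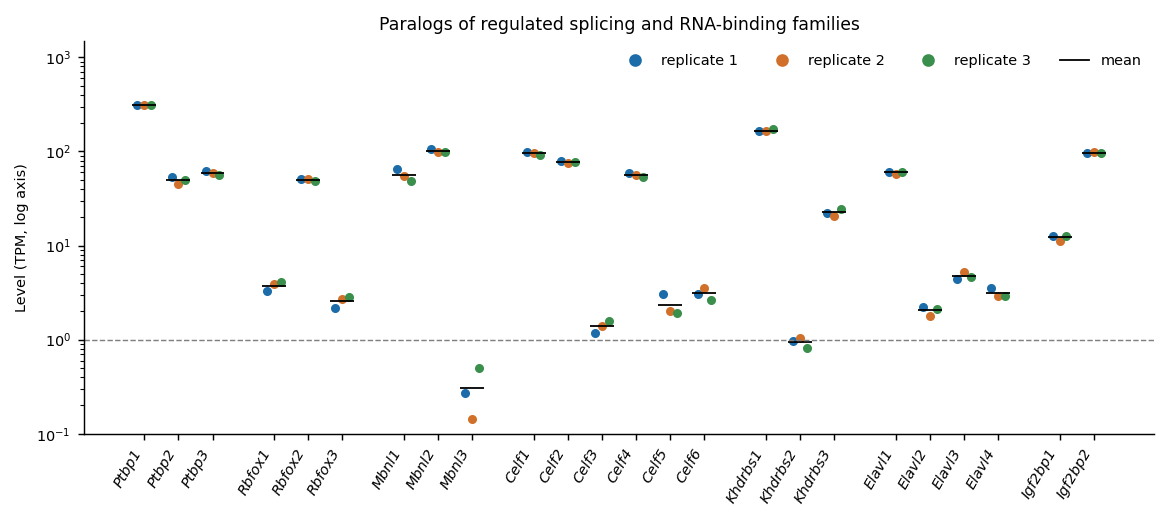
Level in TPM (log axis) of paralogs in 7 families; points are the 3 replicates, black lines their mean, and the dashed line is 1 TPM; Elavl2, Elavl3 and Elavl4 are shown for comparison and are not members. Within the families Ptbp1, Rbfox2, Mbnl2, Celf1, Khdrbs1, Elavl1 and Igf2bp2 have the highest means, and Mbnl3 and Khdrbs2 lie lowest.

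Among regulators of mRNA stability and translation, 4 of 6 members were above 1 TPM. Igf2bp2, an RNA-binding protein of growing tissues that shields mRNAs from decay, was highest at 95.4, 98.2 and 95.6 TPM, followed by Elavl1, or HuR, which stabilises AU-rich mRNAs, at 60.9, 57.2 and 61.2 TPM. Igf2bp1, the zipcode-binding protein, was at 12.7, 11.3 and 12.6 TPM, below Igf2bp2 by a log2 ratio of -2.98 ± 0.12. Msi1, a Musashi protein of neural stem cells and early glia, was at 22.8, 29.8 and 29.9 TPM, lower in replicate 1 than in the others. Lin28a, the pluripotency factor that blocks let-7 maturation, was below 1 TPM at 0, 0 and 0.041 TPM from 1 count, and Lin28c, described in the table only as a Lin-28 homolog, had none. Igf2bp3, Msi2 and Lin28b were not analysed here, nor were U2af2, Nova2, Snrpd3, Hnrnpa0 and Hnrnpll.

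Apart from Celf4 and Ptbp2, members known mainly from neurons were at low levels, and neuronal markers were detected beside them. The related neuronal regulators Elavl2, Elavl3 and Elavl4, which are not members, were at 2.04 ± 0.226, 4.73 ± 0.401 and 3.10 ± 0.339 TPM, and Elavl1 exceeded them by log2 ratios of 4.81 ± 0.11, 3.63 ± 0.17 and 4.23 ± 0.13. All 11 measured sensory neuron markers were above 1 TPM and none was listed at 0, the lowest being Isl1 at 2.23 ± 0.484 TPM. In a bulk library a few cells of a type with high levels and many cells with low levels cannot be told apart, and the part of neurons in the levels of Rbfox1, Rbfox3, Nova1, Celf3, Celf4, Celf5 and Celf6 was not tested.

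Over all 46 pairs of related genes listed for comparison, of which Hnrnpc and Hnrnpr are not paralogs, 38 had both genes in the table. The first gene was higher in 3 of 3 libraries in 29 of them and the second in 7, and the direction was mixed for Srsf1 with Srsf9 and for Esrp2 with Esrp1. The largest log2 ratios were those of Hnrnpd to Hnrnpab (10.44 ± 0.63), Snrpb to Snrpn (10.32 ± 0.92), Hnrnpc to Hnrnpr (-9.27 ± 0.04, which depends on the 0.1 TPM added, since Hnrnpc had no count) and Hnrnph1 to Hnrnph3 (8.58 ± 0.21), in each of which the lower gene is listed at 2 places or shares most of its bases. The ratios to Hnrnpab and Snrpn, with 4 counts each, also depend on the value added: with 1 and 0.01 TPM in place of 0.1 they were 7.64 and 12.24 for Hnrnpd to Hnrnpab, and 7.87 and 11.77 for Snrpb to Snrpn. As plain ratios of mean TPM they were 3448-fold (95% exact interval for counting error 1346 to 12659) and 2021-fold (789 to 7421). Among the remaining pairs the largest were Mbnl2 to Mbnl3 (8.06 ± 0.66), Khdrbs1 to Khdrbs2, Mbnl1 to Mbnl3 (7.20 ± 0.77) and Celf1 to Celf3, and with 1 TPM added those of Mbnl2 and Mbnl1 to Mbnl3 were 6.30 and 5.45 and that of Khdrbs1 to Khdrbs2 was 6.43. With 3 libraries an exact sign-flip permutation test of a ratio cannot go under p = 0.25, so no pair was tested. Each ratio compares levels per listed length and takes reads of both genes to be recovered alike.

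Nearly all other measured genes of the splicing machinery were expressed as well. Of 59 measured spliceosome components that are not members, 58 were called above 1 TPM, and their median level was 66.9 ± 3.56 TPM. The highest was the RNA helicase Ddx39b at 514 ± 5.10 TPM, followed by the U1 protein Snrnp70 at 317 ± 10.4 TPM, and Prpf8, the scaffold of the catalytic centre, was at 151 ± 3.84 TPM. The 1 that did not pass was Rbm39 at 1.09 ± 0.163 TPM, which is listed at 2 places as well. All 8 exon junction complex genes were above 1 TPM, led by Eif4a3 at 211 ± 2.35 TPM.

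Of the 7 kinases that phosphorylate SR proteins 6 were above 1 TPM. Clk1 led at 407 ± 20.7 TPM, far above Srpk1 at 57.6 ± 2.30 TPM, while Srpk3, known from muscle, was at 1.17 ± 0.448 TPM and passed in neither direction. Of 11 measured genes for SR protein import and snRNP assembly 10 were above, among them Smn1 at 65.1 ± 4.95 TPM and Tnpo3, the importer of SR proteins, at 58.8 ± 3.02 TPM, and Wdr77, which is listed at 2 places, was below at 0.333 ± 0.182 TPM. Of the 3 regulators listed for muscle, Rbm38 was above 1 TPM at 65.3 ± 2.12 TPM, while Rbm20 and Rbm24 were below, at 0.373 ± 0.0639 and 0.360 ± 0.0726 TPM. Beside them, 4 of 6 mural and muscle markers were above 1 TPM, Tagln at 466 ± 13.0, Acta2 at 317 ± 10.9, Des at 7.89 ± 1.29 and Myh11 at 1.69 ± 0.202 TPM, and Myod1 and Myog were listed at 0. The list summed to 773 to 818 TPM in each library, and its part in these levels was not tested.

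Levels were close between libraries. Of the 64 members with a mean of at least 10 TPM, 2 had a highest library over 1.2 times the lowest, where 7.54% of the 8372 genes at that level did. These were Mbnl1, whose 65.2 TPM in replicate 1 was 1.34 times its 48.6 TPM in replicate 3, and Msi1, whose 29.9 TPM in replicate 3 was 1.31 times its 22.8 TPM in replicate 1. Without replicate 1 neither passed that ratio, so both rest on that library. The median CV was 3.30% over these members, against 3.84% over all genes at that level, where counting error alone would give medians of 2.52% and 3.56%. The CV was above the counting error in 41 of the 64, where the share over all genes at that level was 57.7%.

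**Figure D4:**
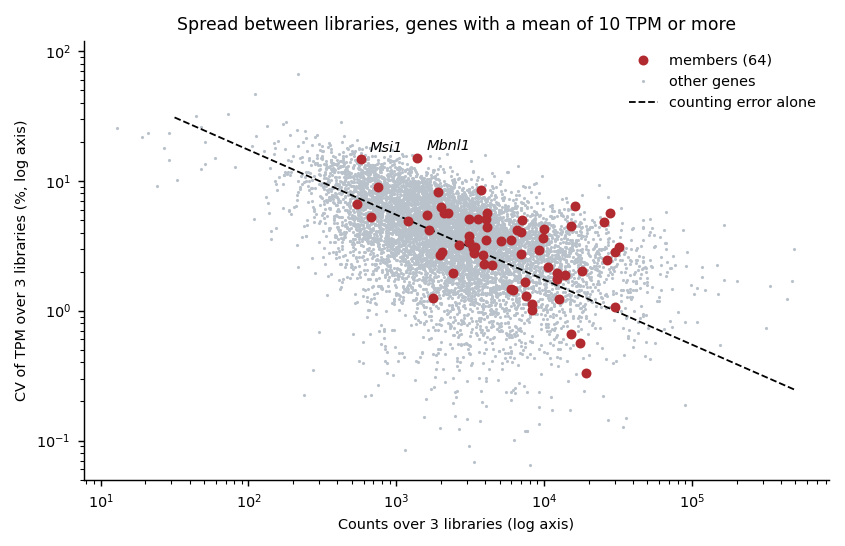
Coefficient of variation of TPM over the 3 libraries (vertical log axis, %) against total counts (horizontal log axis) for genes with a mean of 10 TPM or more; red points are the 64 members, grey points other genes, and the dashed line is the value that counting error alone gives at equal depth. Mbnl1 and Msi1 lie highest among the members, at 15.1% and 14.8%.

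Which library was highest differed between roles. Of the 64 members 36 were highest in replicate 1, where 42.5% of all genes at that level were, 12 in replicate 2 (30.3% of all genes) and 16 in replicate 3 (27.2%). Of 15 hnRNPs 11, of 12 SR proteins 9 and of 12 tissue-regulated factors 9 were highest in replicate 1. Of 11 SF3 and U2AF members 5 were highest in replicate 1, 6 in replicate 2 and 0 in replicate 3. For 4 stability and translation regulators these numbers were 1, 1 and 2. Of 10 Snrp members 7 were highest in replicate 3. For these Snrp members, except Snrpg and Snrpb2, the CV was below that of counting error alone. Which library is highest cannot be told from counting error in such genes. The difference between roles was small: the median log2 ratio of replicate 1 to the mean of the others was 0.08 for tissue-regulated factors, 0.05 for hnRNPs, 0.05 for SR proteins, 0.01 for stability and translation regulators, -0.01 for SF3 and U2AF and -0.03 for Snrp members. In the same order the median listed lengths were 2024.5, 2347, 1942.5, 2272, 1607 and 884 bases, so the shortest role had the lowest ratio but the longest did not have the highest. Over all genes at that level, 43.5% of those of 1000 bases or more were highest in replicate 1, against 34.1% of the shorter ones, and the part of length in these ratios was not tested.

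Many members have named pseudogenes, whose sequence can resemble that of the parent gene. In the gene table of the GRCr8 assembly, 32 of the 81 members (39.5%) have at least 1 pseudogene named after them. The share was 8.25% of all genes listed and 12.3% of detected genes. Hnrnpa1 has 50, Srsf3 and Snrpc have 10 each, Snrpg has 8, and Hnrnpk and Srsf7 have 7 each. Of the Snrp members 9 of 11 have at least 1, and of the tissue-regulated factors 2 of 22, Ptbp1 with 6 and Mbnl3 with 1. Since the handling of reads with several matches is not given, levels of these genes are uncertain by an amount that was not measured.

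By their median, the promoter windows of the members were rich in CpG, as those of other expressed genes were. Windows from 250 bases before to 50 after the gene start, from RefSeq on GRCr8, were matched by gene identifier for 68 members, with 1 window per gene. They held a median of 26 CpG dinucleotides, against 22 over the 6863 genes of the table at 10 TPM or more and 4 over the 4633 genes under 1 TPM in each library. Some windows may lie at an internal alternative start, which was not checked for each gene. In those of Hnrnpk, Hnrnph3 and Mbnl3, the bases before the start end like an intron. They form a stretch rich in C and T followed by AG. In the window of Celf1 such a stretch lies at the start. These windows may therefore not be promoters. That of Hnrnpk, at 558 TPM, held 2 CpG, and that of Celf1, at 95.1 TPM, held 5. The 55 members at 10 TPM or more had a median of 26 and the 13 lower ones 16. Among the lower ones are Hnrnpc, Hnrnpab, Hnrnph3 and Snrpn, whose levels cannot be read as expression levels. The windows of Hnrnpa2b1, the highest member, of Mbnl3, a member below 1 TPM, and of Khdrbs2, a low member rich in CpG, are printed. They run 5' to 3' on the strand of the gene, with each CpG in capitals. Since the window of Mbnl3 may not be a promoter, its CpG number cannot stand for the low end. In the order given, the windows lie at chr4:81875837-81876136 on the minus strand (32 CpG), chrX:135582925-135583224 on the minus strand (2 CpG) and chr9:41942820-41943119 on the plus strand (31 CpG).
Hnrnpa2b1: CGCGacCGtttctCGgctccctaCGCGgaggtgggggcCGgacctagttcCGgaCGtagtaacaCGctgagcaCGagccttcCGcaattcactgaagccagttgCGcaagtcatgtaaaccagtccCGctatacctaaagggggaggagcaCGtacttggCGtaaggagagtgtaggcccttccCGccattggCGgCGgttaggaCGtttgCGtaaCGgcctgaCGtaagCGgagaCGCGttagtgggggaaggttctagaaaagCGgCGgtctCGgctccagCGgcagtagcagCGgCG
Mbnl3: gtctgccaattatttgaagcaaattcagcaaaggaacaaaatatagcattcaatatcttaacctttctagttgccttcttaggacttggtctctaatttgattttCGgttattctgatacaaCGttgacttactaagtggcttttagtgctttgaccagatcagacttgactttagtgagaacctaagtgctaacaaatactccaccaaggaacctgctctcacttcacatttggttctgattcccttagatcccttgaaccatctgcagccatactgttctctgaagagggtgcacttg
Khdrbs2: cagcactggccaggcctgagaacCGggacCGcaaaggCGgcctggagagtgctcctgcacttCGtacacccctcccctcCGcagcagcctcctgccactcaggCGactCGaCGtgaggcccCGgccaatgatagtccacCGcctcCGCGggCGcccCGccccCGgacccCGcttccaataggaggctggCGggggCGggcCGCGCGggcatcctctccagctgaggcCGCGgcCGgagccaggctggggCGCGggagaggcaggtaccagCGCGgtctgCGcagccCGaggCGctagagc
A high CpG number was thus found at both ends of the range, Khdrbs2 being at 0.940 ± 0.114 TPM.

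Short motifs were searched on both strands of the same windows. CCAAT was present in 33 of 68 members (48.5%), against 37.9% of all genes of the table with a window, and in 47.3% of members at 10 TPM or more, against 38.1% of all genes at that level. GGGCGG was present in 44 members (64.7%), against 49.6% of all genes, and in 65.5% of members at 10 TPM or more, against 66.1% of all genes at that level. CCGGAAG was present in 15 of the 55 members at 10 TPM or more (27.3%), against 20.8% of all genes at that level. It was in none of the 13 lower members, and in 2.98% of all genes under 1 TPM. The lower members include genes between 1 and 10 TPM, so these sets are not alike. They are also too few to be told apart from so low a share. TATAAA was present in 6 members (8.82%), against 11.8% of all genes, and in 9.09% of members at 10 TPM or more, against 5.96% of all genes at that level. A match says only that these letters stand in the window.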

How the data were processed

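Levels of splicing and RNA-binding genes were measured by RNA sequencing with a stranded mRNA kit in 3 libraries of 1 untreated group. The authors deposited raw counts per gene, listed gene lengths and TPM. The submitters' processing notes name STAR 2.5.2b, Subread and rn6. Not given in the sources used here are the gene models, the strandedness used in counting and the treatment of multi-mapped reads. The deposited TPM were recovered from counts and lengths within 0.0005 TPM. Left unused were 3 columns of counts over length, 6 columns of totals and 2 nameless rows. The variance between pairs of libraries was 1.67 to 2.36 times that of the sampling noise of their counts, so none was treated as a repeat of another. This is the chi-square per degree of freedom over the 10935 to 10943 genes that passed a minimum count in a pair.

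Each gene with a count was tested with limma 3.58.1 (R 4.3.3) on log2(TPM + 1) against the value at 1 TPM, a moderated one-sample test two-sided and with variance trend; calls need an adjusted p (Benjamini-Hochberg over all genes) under 0.05; the pseudocount makes differences of low genes look smaller. The alternative edgeR 4.0.16 used the deposited counts. Both were checked on simulated data first. Of 50 genes set at 1 TPM, limma called 3 above and 2 below, and edgeR 4 above and 0 below. Of 50 set at 2 TPM, both called 50 above. Calls close to 1 TPM are therefore uncertain. Shared bases were taken from the exon coordinates of the table, and a gene was called listed at 2 places where its exon widths repeat within 3 bases or its exons lie on more than 1 chromosome or strand. The floor was 3 counts and intervals are exact at 95%; both cover counting error only. Members and lists were chosen with earlier results of these data known. Values in each library are given for the 2 highest and 2 lowest members of each role, members under 1 TPM in any library and genes of the 10 ratios furthest from 0. Symbols are those of the table. Identifiers were matched to GRCr8 for names and promoter windows, and named pseudogenes were matched to GRCr8 by symbol.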

Additional observations from a re-analysis of the deposited data

How the results depend on the processing

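The number of members above 1 TPM stayed between 68 and 73 in every alternative run: other pseudocounts, filters, no variance trend, TMM rescaling, levels of 0.5 and 2 TPM, edgeR on the counts (71 above, 5 below) and leaving out each library in turn (70 to 71). The number below was 5 and became 8 with no filter on low values, 2 under a stricter filter (mean of 0.1 TPM) and 8 against a level of 2 TPM, and 4 to 5 without a library; these filters change how many near-silent members are tested. By the geometric mean of TPM + 1 in place of the median, the level of a role was 119 for hnRNPs, 116 for SR proteins, 121 for SF3 and U2AF, 90.0 for Snrp members, 15.7 for tissue-regulated factors and 10.4 TPM for stability and translation regulators, which puts SF3 and U2AF above hnRNPs. The hnRNP value includes Hnrnpc, Hnrnpab and Hnrnph3, whose levels cannot be read as expression levels, and was not computed without them. Without genes listed at 2 places the medians of hnRNPs and of stability and translation regulators were 268 and 27.5 TPM, and without those sharing 75% of their bases as well, a setting chosen after seeing the data, 287 and 27.5 TPM. Members with a highest library over 1.2 times the lowest numbered 2, and 8 when genes from a mean of 1 TPM up were taken, 0 at a ratio of 1.5, and 0 to 2 without a library, 0 being without replicate 1. Of 185 values of 37 log2 ratios under alternatives, 166 moved by less than 1 SD, 19 by more and 0 changed sign. No paired analysis was possible because there is 1 group. Precision of members under 1 TPM is limited by their counts.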
